A study of Mus musculus with 6 samples.

Results

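The mevalonate pathway to squalene, the first stretch of cholesterol synthesis, is described here through 9 genes, Acat2, Hmgcs1, Mvk, Pmvk, Mvd, Idi1, Fdps, Ggps1 and Fdft1. They are the rows of the deposited gene table that carry these symbols, 9 of its 30889 genes, and all 9 passed the filter on low counts that left 18071 genes for testing. RNA was sequenced from the livers of mice after 14 days of oral treatment. In 3 libraries (extract) the mice had received Emilia sonchifolia, a plant of the daisy family, as a water extract, and in the other 3 (control) phosphate buffer saline. Liver transcripts of the extract group were compared with those of the control group. The labels used here give no strain, genotype, sex, age, diet or dose. They also leave unsaid whether the 3 libraries of a group come from 3 animals, so the p-values reflect only the variation among libraries, and that variation may be technical.

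The pathway builds all sterols and isoprenoids of the cell from acetyl-CoA. Acetyl-CoA units are joined and reduced to mevalonate, mevalonate is phosphorylated and decarboxylated to isopentenyl diphosphate, and the isoprene units are condensed to farnesyl diphosphate. From there one branch joins a pair of farnesyl groups into squalene, the first intermediate committed to sterols, and another adds an isoprene unit to give geranylgeranyl diphosphate, used to anchor proteins in membranes. In liver the genes of the sterol branch are known to be driven together by the transcription factor SREBP2, which is released from the endoplasmic reticulum when membrane sterol is low.

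Promoters are shown first for 4 of the 9 genes, 3 that were higher with the extract and Ggps1, which was not called. The sequences are from RefSeq on GRCm38.p6, and the table used held 7 of the 9 genes, without Fdps and Fdft1, in 8 windows, since Pmvk has 2. Each is the 250 bases before the RefSeq start, 5′ to 3′ on the strand of the gene. Capitals mark matches to 3 motifs on either strand: TCACNCCAC, a sterol regulatory element-like core, where SREBP proteins are known to bind, CCAAT, the box bound by NF-Y, and GGGCGG, the GC box bound by Sp1.
Hmgcs1 (chr13:119690101-119690350, plus strand): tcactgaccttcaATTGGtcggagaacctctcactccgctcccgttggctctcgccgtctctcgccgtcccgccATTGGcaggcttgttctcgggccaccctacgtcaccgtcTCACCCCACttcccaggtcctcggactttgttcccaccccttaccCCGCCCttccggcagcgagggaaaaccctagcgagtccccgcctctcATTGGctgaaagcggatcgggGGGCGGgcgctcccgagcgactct
Mvk (chr5:114444019-114444268, plus strand): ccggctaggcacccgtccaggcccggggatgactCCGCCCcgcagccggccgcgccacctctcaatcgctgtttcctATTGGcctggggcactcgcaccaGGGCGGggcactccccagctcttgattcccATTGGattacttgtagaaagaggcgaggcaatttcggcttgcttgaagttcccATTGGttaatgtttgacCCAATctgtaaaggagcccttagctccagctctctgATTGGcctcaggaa
Mvd (chr8:122443423-122443672, minus strand): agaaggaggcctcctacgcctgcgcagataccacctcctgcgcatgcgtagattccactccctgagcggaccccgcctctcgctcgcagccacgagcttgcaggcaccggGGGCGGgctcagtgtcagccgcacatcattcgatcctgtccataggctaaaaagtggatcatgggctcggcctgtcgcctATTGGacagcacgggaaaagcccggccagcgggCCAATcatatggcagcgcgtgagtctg
Ggps1 (chr13:14063489-14063738, minus strand): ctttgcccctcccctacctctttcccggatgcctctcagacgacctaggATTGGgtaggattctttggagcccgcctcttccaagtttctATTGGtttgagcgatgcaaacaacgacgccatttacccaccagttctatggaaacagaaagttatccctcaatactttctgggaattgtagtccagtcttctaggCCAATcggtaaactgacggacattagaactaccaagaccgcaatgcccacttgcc
The sterol regulatory element-like core was found in 1 of the 8 windows, that of Hmgcs1, with its first base at position -137 from the RefSeq start. Of 32851 promoter windows of the same length, 1.05% held it. The CCAAT box was found in 6 of the 8 windows and the GC box in 5, each in a different gene, against 33.8% of all windows for the CCAAT box and 32.7% for the GC box. Ggps1 held 3 CCAAT boxes and no GC box in this window, while Mvk held 5 CCAAT and 2 GC boxes, Hmgcs1 3 and 2, and Mvd 2 and 1. Of the called genes not printed, Idi1 held 2 CCAAT boxes and 1 GC box and Acat2 0 and 1. Pmvk held 1 CCAAT box over its 2 windows and, like Ggps1, no GC box. Of the enzymes after squalene, 11 had a promoter listed. Counted by gene, with a match in any window of a gene, the sterol regulatory element-like core was found in 0 of these, the CCAAT box in 10 and the GC box in 11. The shares above are by window, so these counts by gene cannot be set directly against them. No match in the 4 windows printed overlaps another. These are matches of letters and say nothing about whether a factor was bound.

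Of the 9 genes, 8 were higher with the extract and 1, Ggps1, did not pass the test (edgeR quasi-likelihood test with Benjamini-Hochberg adjustment over all 18071 genes, threshold 0.05). Over all genes tested, 14.2% were called higher, and 4.53% were called higher with a fold change at least that of Acat2, the smallest of the 8. The 8 rose between 1.51-fold (Acat2) and 4.02-fold (Idi1), and each had all 3 extract libraries above all 3 control libraries, a pattern held by 17.7% of the genes tested. The median log2 fold change of the 9 genes was 1.27, against -0.02 for all genes tested. The count of 8 was the same with each library left out in turn, and was 7, without Acat2, when counts of near copies were added together. Control 3 stood apart from the other control libraries, and values without it are given further on. Values below are FPKM, that is, scaled for transcript length and library size, as levels; each fold change is a difference fitted to the counts.

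**Figure D1:**
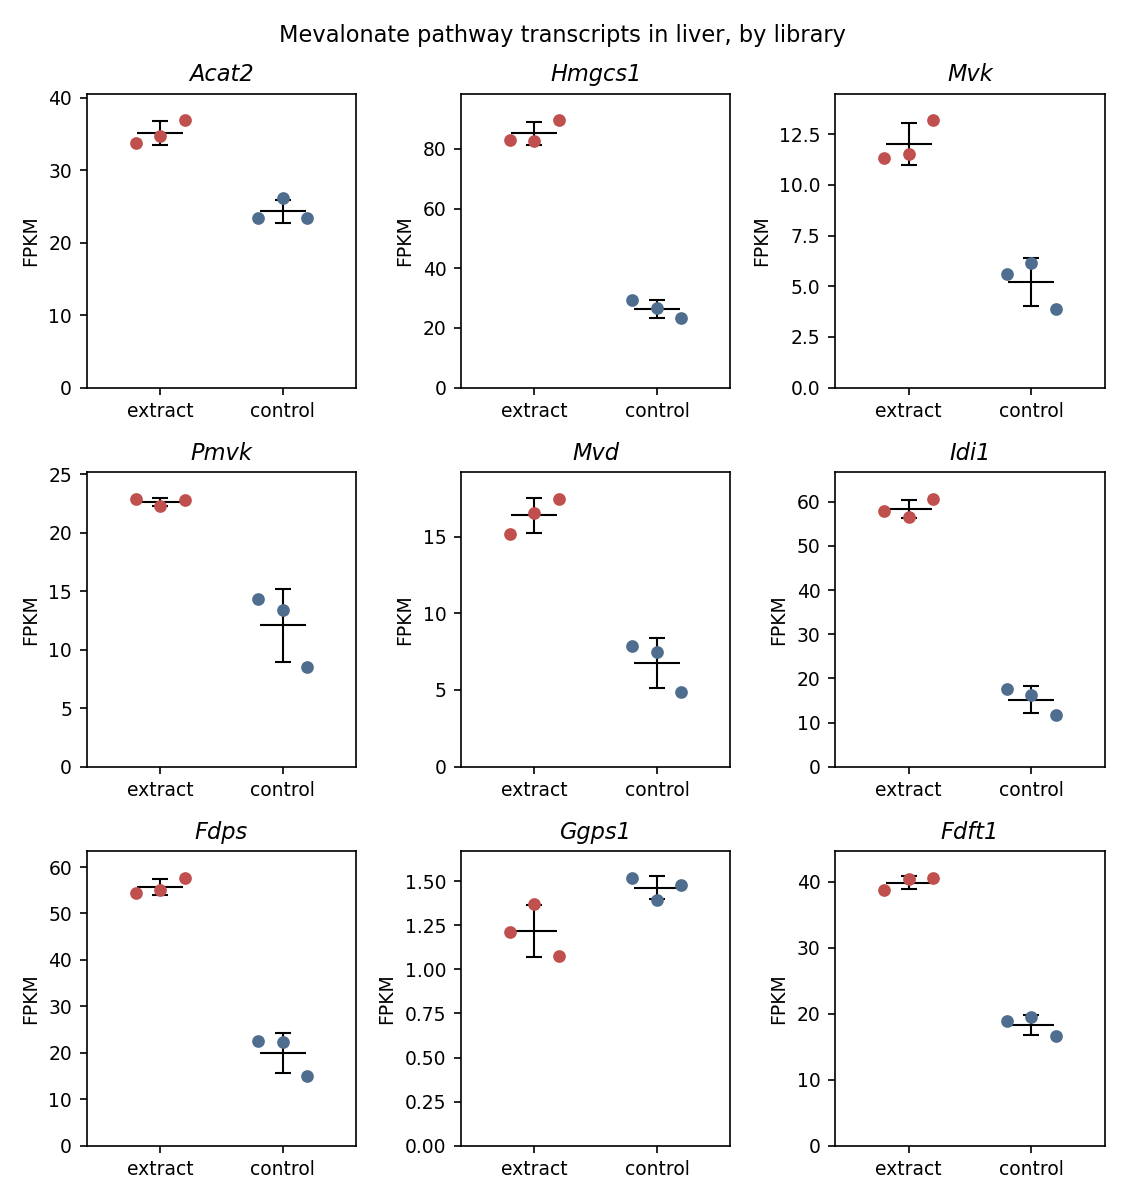
FPKM of each of the 9 genes in the 3 extract libraries (left) and the 3 control libraries (right), with a bar at the mean and whiskers of 1 SD; each axis starts at 0. Extract points lie above all control points in 8 panels, and below them in that of Ggps1, where the nearest points are 1.37 and 1.39 FPKM.

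The first step joins acetyl-CoA to acetoacetyl-CoA and the second adds another acetyl-CoA to give HMG-CoA. Hmgcs1, the cytosolic HMG-CoA synthase (ENSMUSG00000093930, chromosome 13, 119690379 to 119708260, plus strand), was at 83.1, 82.8 and 89.6 FPKM in extract libraries 1, 2 and 3, against 29.3, 26.6 and 23.4 FPKM in control libraries 1, 2 and 3. It had the highest level of the 9 genes in both groups, and the groups lay far apart relative to their spread, at 85.1 ± 3.85 FPKM in extract and 26.4 ± 2.94 FPKM in control (SD, n = 3). On the log2 scale the rise was 1.75 ± 0.08 (SE), with an adjusted p of 9.21e-06 by edgeR. Acat2, the cytosolic acetoacetyl-CoA thiolase (ENSMUSG00000023832, chromosome 17, 12942890 to 12960747, minus strand), was at 33.7, 34.7 and 36.9 FPKM in the extract libraries, against 23.4, 26.1 and 23.4 FPKM in the control libraries. The 8 called genes included no smaller rise than this one, at 0.59 ± 0.06 on the log2 scale (SE), with an adjusted p of 0.000309 by edgeR.

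The Acat2 value depended on a neighbour. Acat3, a mouse gene beside it on the same strand, matched the longest coding Acat2 transcript at 97.7% identity over 1477 bases, so that reads can be assigned to either gene. Acat3 was at 55.9, 57.0 and 57.2 FPKM in the extract libraries, against 75.6, 75.2 and 76.0 FPKM in the control libraries. It fell by 0.35 on the log2 scale (edgeR adjusted p = 0.000426), in the opposite direction to Acat2. With the counts of both added up, the pair had 280 ± 9.76 CPM (counts scaled to the library total) in extract and 291 ± 1.75 in control (SD, n = 3), a log2 difference of -0.05 ± 0.04 (SE), with a 95% interval of -0.14 to 0.04 and an adjusted p of 0.384 by edgeR. A sum over the pair, an alternative chosen after seeing the data, therefore did not pass, and whether Acat2 and Acat3 changed separately or reads were divided differently between them was not tested.

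**Figure D2:**
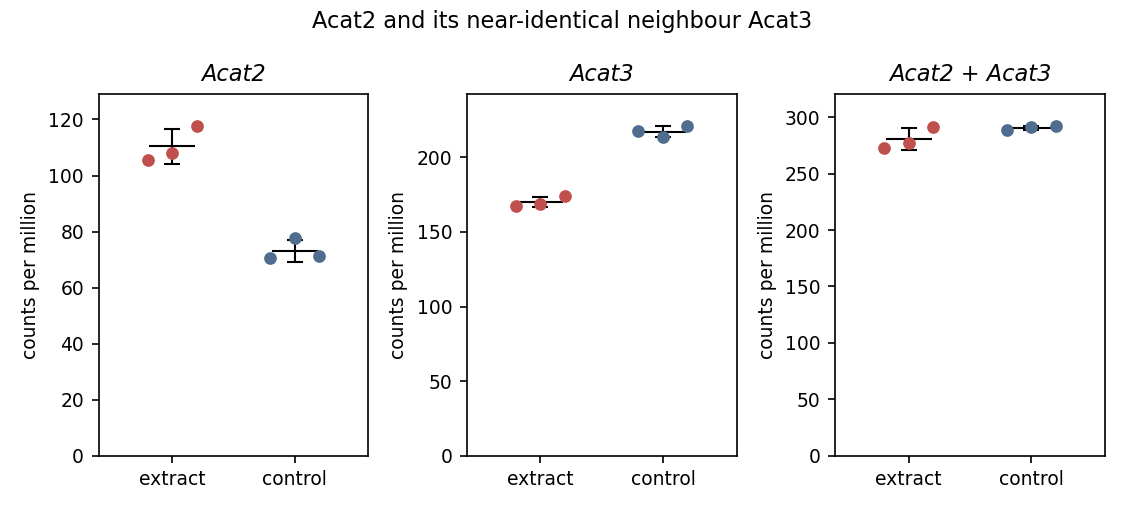
CPM (counts scaled to library totals with TMM factors) of Acat2, of Acat3 and of their sum in extract libraries (left) and control libraries (right), with means and 1 SD; axes start at 0. Acat2 is higher in extract, Acat3 lower, and the sums are 280 ± 9.76 in extract and 291 ± 1.75 in control.

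The 3 enzymes that turn mevalonate into isopentenyl diphosphate had lower levels than the synthase. Mvk, mevalonate kinase (ENSMUSG00000041939, chromosome 5, 114444269 to 114460591, plus strand), was at 11.3, 11.5 and 13.2 FPKM in the extract libraries, against 5.60, 6.13 and 3.88 FPKM in the control libraries. Pmvk, phosphomevalonate kinase (ENSMUSG00000027952, chromosome 3, 89454541 to 89469013, plus strand), was at 22.9, 22.3 and 22.8 FPKM in the extract libraries, against 14.3, 13.4 and 8.48 FPKM in the control libraries. Mvd, the decarboxylase that ends this stretch (ENSMUSG00000006517, chromosome 8, 122433601 to 122443422, minus strand), was at 15.2, 16.6 and 17.4 FPKM in the extract libraries, against 7.88, 7.49 and 4.87 FPKM in the control libraries. In all 3 genes control 3 was well below controls 1 and 2, and the groups did not overlap. The log2 fold changes were 1.27 ± 0.15 for Mvk, 0.97 ± 0.17 for Pmvk and 1.34 ± 0.16 for Mvd (SE), with edgeR adjusted p of 0.000778, 0.00412 and 0.000771.

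Idi1, the isomerase that makes dimethylallyl diphosphate, the starter unit of isoprenoid chains (ENSMUSG00000058258, chromosome 13, 8885501 to 8892451, plus strand), was at 57.8, 56.6 and 60.6 FPKM in the extract libraries, against 17.6, 16.1 and 11.7 FPKM in the control libraries. No other of the 9 genes had a higher fold change, at 2.01 ± 0.13 in log2 units (SE, adjusted p = 4.54e-05 by edgeR), and its rank by level was 2 in extract and 5 in control. Idi2, the second isomerase gene of the mouse, was listed at 0 in all 6 libraries. Fdps, farnesyl diphosphate synthase (ENSMUSG00000059743, chromosome 3, 89093588 to 89101959, minus strand), was at 54.4, 55.0 and 57.6 FPKM in the extract libraries, against 22.6, 22.3 and 14.98 FPKM in the control libraries. Fdps rose by 1.54 ± 0.14 in log2 units (SE, adjusted p = 0.000183 by edgeR), and its groups did not overlap.

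Processed pseudogenes with near-identical copies of Idi1 and Fdps were listed with levels that went the same way. Gm13502, identical to Idi1 over 684 bases, was at 21.6 ± 1.39 FPKM in extract and 5.34 ± 1.81 FPKM in control (SD, n = 3). Gm3571, 98.9% identical to Fdps over 1062 bases, was at 14.8 ± 0.414 FPKM in extract and 5.55 ± 1.32 FPKM in control (SD, n = 3). Gm43738, which shares 1124 exon bases with Fdps on the same strand, had no value here. Reads of the parent genes can be placed on such copies, so the levels of Idi1 and Fdps are uncertain by that part. With the copies' counts added, the log2 fold changes were 2.01 for Idi1 and 1.54 for Fdps.

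At the branch point, of the enzymes that use farnesyl diphosphate, squalene synthase was called higher and geranylgeranyl diphosphate synthase was not called. Fdft1, squalene synthase (ENSMUSG00000021273, chromosome 14, 63145150 to 63179578, minus strand), was at 38.7, 40.3 and 40.5 FPKM in the extract libraries, against 18.9, 19.5 and 16.6 FPKM in the control libraries. Its groups lay far apart, with a rise of 1.18 ± 0.06 in log2 units (SE, adjusted p = 1.44e-05 by edgeR). Ctsb, a lysosomal protease gene on the other strand, shares 774 exon bases with Fdft1 (18.3% of its exon bases), and since no use of strand is stated their reads there cannot be told apart. Ctsb was lower, at 85.7 ± 2.54 FPKM in extract and 109 ± 2.18 FPKM in control (SD, n = 3).

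Ggps1, geranylgeranyl diphosphate synthase (ENSMUSG00000021302, chromosome 13, 14050659 to 14063488, minus strand), was at 1.21, 1.37 and 1.07 FPKM in the extract libraries, against 1.52, 1.39 and 1.48 FPKM in the control libraries. In FPKM all 3 extract values lay below the control values, with the nearest at 1.37 in extract 2 and 1.39 in control 2. On that scale 26.9% of the genes tested showed extract values all lower, against 17.7% all higher. Whether the Ggps1 groups stay apart under another scaling was not tested. The fitted log2 difference was -0.20 ± 0.12 (SE, 95% interval -0.47 to 0.08, adjusted p = 0.262 by edgeR), so a rise of the size of any of the other 8 genes lies outside the interval. It also had by far the lowest level of the 9, with 347 to 487 counts per library, while Hmgcs1 stood 69.9-fold above it in extract and 18.1-fold above it in control on the FPKM scale.

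**Figure D3:**
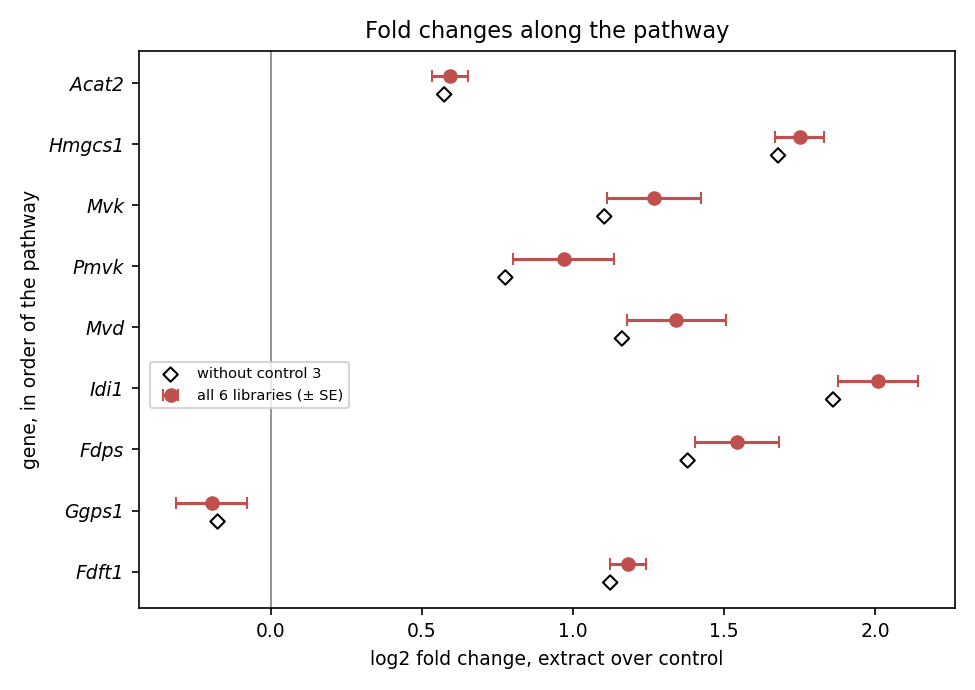
Log2 fold change, extract over control, of the 9 genes in the order of the pathway, with 1 SE (filled points, all 6 libraries) and the value without control 3 (open diamonds). Ggps1 lies at -0.20 and the other 8 between 0.59 and 2.01, and without control 3 those 8 lie between 0.57 and 1.86.

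Ratios within a library do not depend on how libraries are scaled, and 3 of them are given. The ratio of Fdft1 to Ggps1 FPKM was 32.0, 29.5 and 37.7 in the extract libraries and 12.5, 14.0 and 11.2 in the control libraries, a 2.63-fold difference. The ratio of Fdps to Ggps1 was 44.97, 40.2 and 53.6 in the extract libraries and 14.9, 16.0 and 10.1 in the control libraries, a 3.42-fold difference. In both, the groups did not overlap. This follows from the FPKM above, since on that scale Fdft1 and Fdps were higher and Ggps1, by a narrow margin, lower in every extract library. The exact p of both ratios was thereby fixed, and only the size of the difference is added here.

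Another ratio sets the cytosolic thiolase against its mitochondrial counterpart, which serves ketone body metabolism. Acat2 to Acat1, the mitochondrial thiolase, was 0.485, 0.479 and 0.535 in the extract libraries and 0.336, 0.395 and 0.338 in the control libraries, a 1.40-fold difference. With the counts of Acat3 added to those of Acat2, an alternative added after seeing the data, the direction turned. The ratio of summed counts was then 0.847, 0.831 and 0.898 in the extract libraries and 0.930, 1.0 and 0.938 in the control libraries, a log2 difference of -0.15. On the FPKM of the single genes, each of the 3 ratios was higher in 3 of 3 extract libraries than in any control library (two-sided exact permutation p = 0.1, the smallest that 3 against 3 libraries allow, and 0.1 after Benjamini-Hochberg adjustment over the 4 ratios computed). For Acat2 to Acat1 this p also followed from the levels, since the Acat2 groups did not overlap and Acat1 spanned only 66.2 to 72.6 FPKM.

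**Figure D4:**
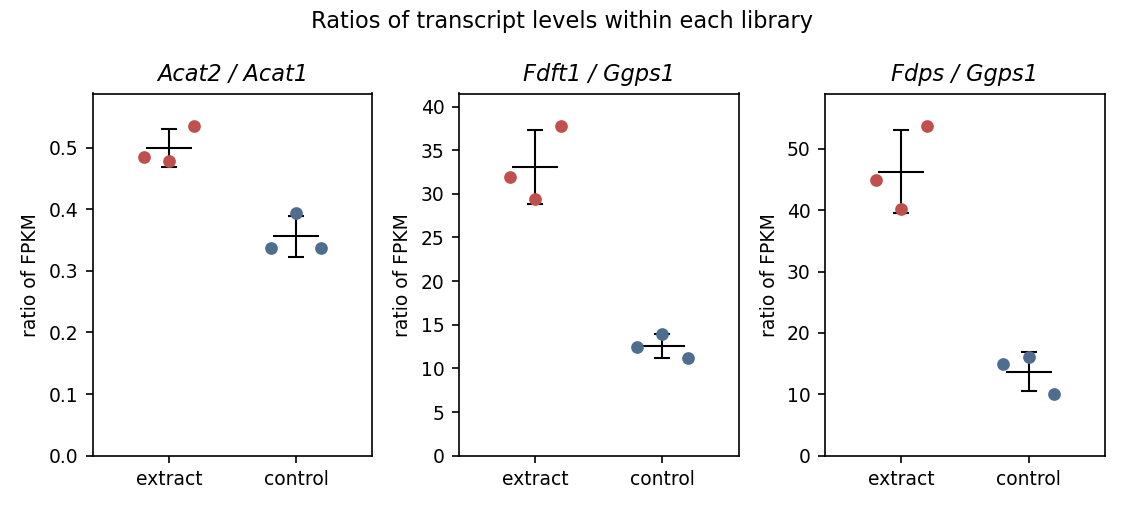
Ratios of FPKM within each library for 3 gene pairs, in extract (left) and control (right), with means and 1 SD; axes start at 0. Every extract point lies above every control point, by 2.63-fold on average for Fdft1 to Ggps1, 3.42-fold for Fdps to Ggps1 and 1.40-fold for Acat2 to Acat1, which turns to a log2 difference of -0.15 when the counts of Acat3 are added to Acat2.

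The mitochondrial thiolase differed less between the groups than Acat2 counted alone. It did not differ less than Acat2 and Acat3 summed, at a log2 difference of -0.05, against 0.10 for Acat1. Acat1 was at 70.4 ± 1.94 FPKM in extract and 68.3 ± 1.82 FPKM in control (SD, n = 3) and was not called (edgeR adjusted p = 0.104).

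Within the control group, one library had lower values. In FPKM control 3 was the lowest control library for 8 of the 9, all but Ggps1, while 38.4% of the 10912 tested genes with at least 1 FPKM on average in control were lowest there. For Acat2 it was nearly level with control 1, at 23.36 against 23.40 FPKM. In CPM, Acat2 was lowest in control 1, at 70.7 against 71.1 in control 3. Its FPKM was between 61.1% (Pmvk) and 94.3% (Acat2) of the mean of controls 1 and 2 for the 8 called genes. The coefficient of variation of these 8 ran from 1.36% to 8.51% in extract and from 6.55% to 26.1% in control. Without control 3 all 8 were still called higher, with log2 fold changes between 0.57 (Acat2) and 1.86 (Idi1).

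**Figure D5:**
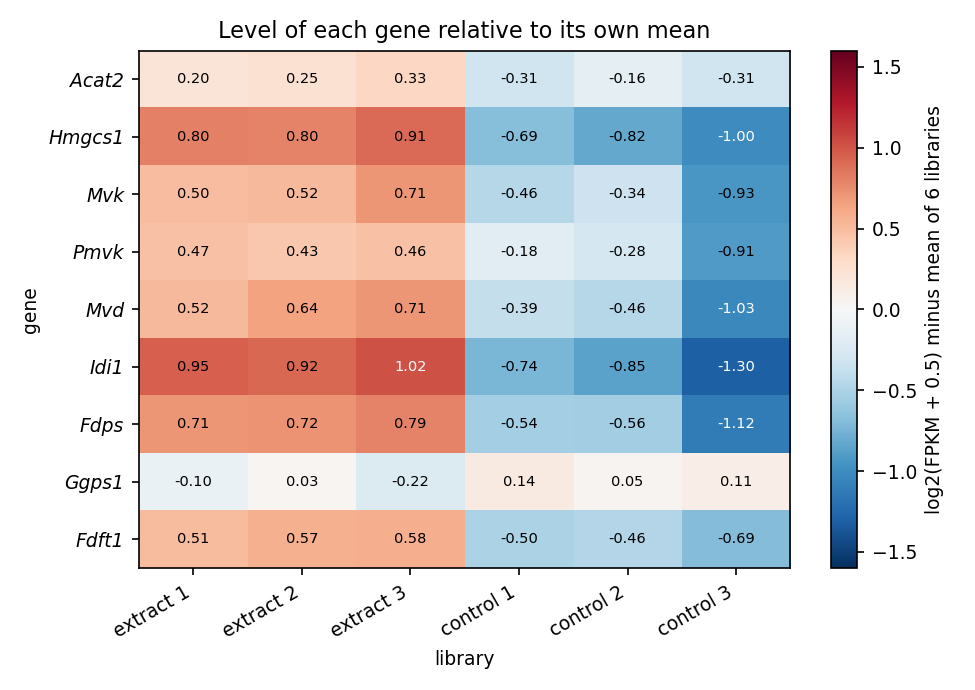
Level of each gene in each library as log2(FPKM + 0.5) minus its mean over the 6 libraries, extract libraries on the left and control libraries on the right. The 8 called genes are above 0 in all extract libraries and below 0 in all control libraries, while Ggps1 stays between -0.22 and 0.14. Each of the 8 is lowest in control 3, though Acat2 is nearly level there with control 1 (-0.315 against -0.313).

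Control 3 also differed in transcripts that mark tissues and cell types, summed over lists of such genes. Its sum was the lowest of the controls for most lists and the highest for others. The counts of markers called are to be read beside the 14.2% of all genes tested that were called higher and the 12.8% called lower. The summed level of 8 pancreas and muscle markers was 159 to 198 FPKM in extract and 42.4 to 124 FPKM in control, with the lowest value in control 3, and 0 of the 8 were called. Of 8 hepatocyte markers, which check the tissue, 2 were higher and 4 lower, with sums of 41534 to 41846 FPKM in extract and 43317 to 51799 FPKM in control, the lowest control again being control 3. All 11 Kupffer cell markers were lower, with sums of 297 to 313 FPKM in extract and 496 to 522 FPKM in control. Of 8 erythroid markers, 7 were lower and the other was not tested, with sums of 198 to 236 FPKM in extract and 1272 to 1617 FPKM in control. All 8 neutrophil markers were lower, with sums of 8.87 to 12.5 FPKM in extract and 55.4 to 116 FPKM in control, the lowest control being control 3. Of 8 endothelial markers, 5 were lower, with sums of 34.6 to 38.2 FPKM in extract and 46.6 to 50.4 FPKM in control, and of 8 lymphocyte markers, 5 were lower, with sums of 2.70 to 3.23 FPKM in extract and 4.81 to 7.15 FPKM in control, with the lowest lymphocyte sum of the controls in control 3. Of 6 stellate cell and 6 cholangiocyte markers, 1 each was lower, near the share over all genes. Control 3 also had the lowest Kupffer cell, erythroid and stellate cell sums of the controls. Its endothelial and cholangiocyte sums, 50.4 and 48.99 FPKM, were the highest of the controls. No marker of these lists was at 0 in all 6 libraries. In whole liver RNA, fewer cells of a type and less RNA per cell cannot be told apart, and the part of these shifts in the values of the pathway genes was not tested.

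The steps after squalene were tested in the same fit, in which 14.2% of all genes tested were called higher. Of 13 enzymes from squalene to cholesterol, 12 rose, 0 fell and 1 was not called, with a median log2 fold change of 1.26, against the -0.02 for all genes tested. Hsd17b7, a sterol ketone reductase, was at 12.4 ± 0.675 FPKM in extract and 4.46 ± 0.186 FPKM in control (SD, n = 3), a 2.90-fold rise (edgeR adjusted p = 5.19e-06). Sc5d, a sterol desaturase, was at 44.8 ± 1.33 FPKM in extract and 18.9 ± 2.29 FPKM in control (SD, n = 3). The 1 gene not called was Lbr, a sterol reductase that is also a protein of the nuclear envelope, at 1.98 ± 0.0553 FPKM in extract and 2.05 ± 0.116 FPKM in control (edgeR adjusted p = 0.904).

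Among 15 genes that sense sterol or carry it, 8 rose, 2 fell and 5 were not called, with a median log2 fold change of 0.20. Shares over all genes tested were 14.2% called higher and 12.8% called lower. Stard4, a sterol transfer protein, rose 2.14-fold, and Insig1, which holds the SREBP complex in the endoplasmic reticulum, was at 56.9 ± 3.21 FPKM in extract and 28.9 ± 2.89 FPKM in control (SD, n = 3), a 2.05-fold rise. Insig2, its relative, went the other way and fell by 0.97 on the log2 scale, to 11.4 ± 0.369 FPKM in extract, against 23.4 ± 2.02 FPKM in control. Srebf2, the gene of SREBP2, was at 10.9 ± 0.286 FPKM in extract and 6.97 ± 0.826 FPKM in control, a 1.63-fold rise (edgeR adjusted p = 0.000631). Of 9 genes for the turnover of sterol enzymes in the endoplasmic reticulum, 4 rose and 1 fell. The 1 that fell is near the share of all genes called lower. Rnf145, a ubiquitin ligase, rose 1.55-fold, while Syvn1, also a ligase, fell by 0.26 on the log2 scale.

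Other genes supply the acetyl-CoA that the pathway starts from. Of 7 such genes, 5 rose and 0 fell, with a median log2 fold change of 0.22. Over all genes tested, 14.2% were called higher and 12.8% lower. Acss2, which makes acetyl-CoA from acetate, rose 1.52-fold, Slc25a1, the citrate carrier of mitochondria, 1.27-fold, and Dlat, a subunit of pyruvate dehydrogenase, 1.16-fold. The count of 5 became 2 without extract 2 or control 2, and 3 without extract 1 or extract 3. Of 5 genes of the mitochondrial counterparts, 2 rose and 1 fell, to be read beside the same shares of all genes. Bdh1, which interconverts ketone bodies, rose 1.17-fold. With any library other than control 3 left out, 1 rose, and with any library other than control 2 left out, 0 fell.

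Other genes use isoprenoids outside sterol synthesis. Of 16 such genes, 15 were tested, of which 3 rose, 1 fell (0 without any library other than control 2) and 11 were not called, with a median log2 fold change of -0.00. The 4 of 15 called in either direction are close to the 26.9% of all genes tested that were called. Pcyox1, an enzyme that breaks down prenylated cysteine, was at 27.4 ± 0.779 FPKM in extract and 21.2 ± 0.503 FPKM in control (SD, n = 3), a 1.34-fold rise (edgeR adjusted p = 0.000272). Zmpste24, a protease that trims prenylated proteins, rose 1.32-fold and Rabggta, a subunit of the transferase that puts geranylgeranyl groups on Rab proteins, 1.16-fold.

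The genes most like the 9 in pattern were sought by the root mean square distance, over the 6 libraries, between each gene's centred log2(FPKM + 0.5) and the mean profile of the 9. Among the 5157 other genes with at least 5 FPKM on average in a group, the 5 nearest were Aacs, Dhcr7, Lss, Tsku and Fads2. Their distances were 0.0461, 0.0509, 0.0582, 0.0641 and 0.0683 on the log2 scale. The 9 genes themselves lay between 0.0615 (Fdft1) and 0.663 (Ggps1) from their own mean profile. That mean includes Ggps1, which did not rise, so nearness to it is not nearness to the most raised genes. Idi1, Hmgcs1 and Fdps lay at 0.423, 0.297 and 0.204, and Acat2, the least raised of the called genes, at 0.307. Aacs, which activates acetoacetate in the cytosol, was at 20.8 ± 0.232 FPKM in extract and 9.18 ± 1.19 FPKM in control (SD, n = 3). Dhcr7 and Lss are enzymes after squalene, Tsku is a secreted liver protein and Fads2 a fatty acid desaturase.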

How the data were processed

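Libraries were made from total liver RNA with oligo(dT) beads, per the labels' protocols. HISAT2 2.0.4, StringTie 1.3.4d, cutadapt 1.9 and edgeR are listed, without roles, per the submitters' processing notes. No build is named in the sources used here. The spans of all 9 genes equal those in GENCODE M21 on GRCm38, as do the spans of 87.4% of the table's genes found there, and coordinates are on that build.

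The deposited table holds whole-number counts per gene and FPKM, per the file headers, in 6 libraries matched by column name. Another 6 columns of per-sample values match no sample and were not used. Counts summed to 51219533 to 61432016 per library. Among low counts, 4 was the most frequent (6292 entries, against 4117 at 3); how reads were counted is not stated. The 9 genes had 347 to 27797 counts per library.

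The edgeR 4.0.16 fit in R 4.3.3 used the counts (filterByExpr, TMM factors, two-sided quasi-likelihood test of extract against control, Benjamini-Hochberg adjustment over all genes, threshold 0.05), after a test on simulated data. Intervals of fold changes are 95%. Near copies were found with BLAST+ 2.17.0 against GENCODE M21 transcripts. Near copies summed were those of at least 95% identity over at least 500 bases. Named genes are the 9, the 3 of each related list with the smallest p, those used in ratios, overlapping genes and copies, and the 5 nearest in pattern; some of these are not reported here. Lbr, Idi2 and Srebf2 fall outside this rule and were chosen after their values were seen. The genes, lists, motifs and tests were chosen with earlier results of these data known. Alternatives were other scalings, no filter on low counts, DESeq2 1.42.0, limma 3.58.1 on log2(FPKM + 0.1, 0.5 or 1), the replicate number as a block, counts divided by 4, near copies summed, and each library left out.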

Additional observations from a re-analysis of the deposited data

How the results depend on the processing

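Of the 9 pathway genes, 8 were called higher under every setting run but 1, which left 7, and log2 fold changes of the 7 other than Acat2 and Ggps1 stayed within 0.78 (Pmvk) and 2.13 (Idi1). The exception was Acat2, whose counts summed with those of Acat3 gave -0.051. Ggps1 was called under no setting (adjusted p 0.112 to 0.556). Replicate numbers did not pair the libraries (correlations of same-numbered deviations of -0.12, -0.03 and -0.09). With the replicate block the 8 were still called, with 2044 higher and 1702 lower calls over all genes. The ratios of Fdft1 and Fdps to Ggps1 kept their direction under all settings run for them, while Acat2 to Acat1 turned to -0.15 with copies summed. Log2 differences under the block were 0.49 for Acat2 to Acat1, 1.40 for Fdft1 to Ggps1 and 1.78 for Fdps to Ggps1 (exact p = 0.25, the smallest it allows).

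Of all genes called, 52.6% were higher, against 42.8% with library totals alone and 39.9% with limma on FPKM. Some counts moved. Genes called over all genes, 2561 higher, were 1485 with limma on FPKM without a filter, and 2309 lower were 1442 to 2153 with a library left out (1480 without extract 1, 1461 without extract 2, 1442 without control 2). The 5 acetyl-CoA supply genes called higher were 3 with library totals alone, with no filter on low counts and with limma on FPKM at each pseudocount, 0 with limma without a filter, and 2 to 6 with a library left out. The 2 mitochondrial genes called higher were 1 with library totals, limma on FPKM, limma without a filter or the block, and 1 to 2 with a library left out. The 1 called lower was 0 with DESeq2 size factors, no filter or the block, 2 with limma on FPKM, and 0 to 1 with a library left out. The 1 prenyl gene called lower was 2 with library totals or limma without a filter, 3 with limma on FPKM, 0 with DESeq2 or the block, and 0 to 1 with a library left out. The cause of these moves was not tested. Ggps1 had the fewest counts of the 9, and with counts divided by 4 it was at -0.20 (adjusted p = 0.230 by edgeR).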
